A study of Homo sapiens with 6 samples.

Results

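The genes described here are NF-kB transcription factors, their inhibitors and feedback proteins, and cytokines, chemokines and other genes that NF-kB is known to control, 37 in all. They were chosen by symbol from a list, and 35 of the 37 had a row of their own among the 21214 rows of the array table that carry a gene symbol. BIRC3 and CSF2 matched no row used here and were not analysed here. TNF was read by 3 rows with identical values, which were counted as 1 gene, so 37 rows held the 35 genes.

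The cells came from the established cell line MDA-MB-231, a human triple-negative breast cancer, and carried TIP-1 shRNA 162, TIP-1 shRNA 159 or a control shRNA. A short hairpin RNA (shRNA) lowers its target transcript by RNA interference, and TAX1BP3 is the gene of TIP-1, a small PDZ-domain protein. There were 2 independent clones per group and 1 Affymetrix Human Gene 1.0 ST array per clone, so an effect of a hairpin and a difference that both its clones happen to carry cannot be told apart. All clones were grown in RPMI 1640 with 10% fetal bovine serum and left overnight after reseeding, and the labels name no cytokine or other stimulus for any group.

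NF-kB is a family of dimers of REL, RELA, RELB, NFKB1 (p50, from p105) and NFKB2 (p52, from p100), held inactive by inhibitors of the IkB family until a kinase complex, IKK, marks those inhibitors for destruction. Freed dimers enter the nucleus and bind kB sites near genes for inflammatory cytokines, chemokines and adhesion molecules, and also near the genes of their own inhibitors, which closes a feedback loop. MDA-MB-231 cells are known for NF-kB activity without added stimulus and for secreting interleukin-6 and interleukin-8. A transcript level does not measure that activity, and protein, nuclear NF-kB and secreted cytokine were not measured here.

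The values are log2 signals, so a difference of 1 is a 2-fold difference. The targeted transcript was lower with both hairpins, where the row that reads TAX1BP3 (and the read-through P2RX5-TAX1BP3) stood at 9.85 and 10.01 in the shRNA 162 clones and at 10.40 in both shRNA 159 clones, against 11.65 and 11.56 in the control clones. Clones of the same group correlated at 0.9958 to 0.9971 across the tested rows. Of 4 markers of this line, VIM, CD44 and EGFR were read at 10.21 or more on every array and SPARC at 7.55 to 8.23. Of 4 genes known to be low in it, ESR1, PGR and CDH1 were below each array's lower quartile of the tested rows (6.68 to 6.81), but ERBB2 was not, at 7.80 to 8.19, around the arrays' medians (7.86 to 7.91). Of 7 leukocyte markers 6 were measured and 0 passed in any comparison. The sum of their log2 signals spanned 44.12 to 44.35 in the shRNA 162 clones, 43.72 to 44.23 in the shRNA 159 clones and 44.03 to 44.16 in the control clones. Such a sum of logs is not a summed amount of transcript. PTPRC, CD3E and ITGAM were below the lower quartile on all 6 arrays. The other 3 were so on none, namely CD14 (6.96 to 7.20), CSF1R (7.12 to 7.42) and CD68 (11.50 to 11.83). In these bulk cultures, fewer cells making a transcript and less transcript per cell cannot be told apart.

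Promoter sequences of 4 genes are shown because the results turn on them. IL6 and REL rose, as did IL1A, while IL1B, the neighbour and relative of IL1A, fell. Each sequence runs 5′ to 3′ along the gene's own strand over 300 bases, 250 before and 50 after the transcription start in RefSeq (GRCh38.p14), at chr7:22726950-22727249 (plus strand) for IL6, chr2:60881324-60881623 (plus strand) for REL, chr2:112784351-112784650 (minus strand) for IL1A and chr2:112836730-112837029 (minus strand) for IL1B. Capitals mark matches to the NF-kB consensus or to the AP-1 motif TGANTCA on either strand.
IL6: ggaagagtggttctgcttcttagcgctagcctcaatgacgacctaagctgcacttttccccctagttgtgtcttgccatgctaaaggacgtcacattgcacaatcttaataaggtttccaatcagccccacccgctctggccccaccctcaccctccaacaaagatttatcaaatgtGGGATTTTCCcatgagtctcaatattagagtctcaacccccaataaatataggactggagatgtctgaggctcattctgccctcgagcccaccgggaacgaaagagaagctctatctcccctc
REL: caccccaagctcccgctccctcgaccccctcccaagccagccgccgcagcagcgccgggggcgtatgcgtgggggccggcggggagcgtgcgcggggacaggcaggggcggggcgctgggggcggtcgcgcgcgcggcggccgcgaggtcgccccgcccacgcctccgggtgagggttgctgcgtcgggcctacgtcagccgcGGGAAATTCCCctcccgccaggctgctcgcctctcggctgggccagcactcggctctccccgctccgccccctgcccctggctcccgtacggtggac
IL1A: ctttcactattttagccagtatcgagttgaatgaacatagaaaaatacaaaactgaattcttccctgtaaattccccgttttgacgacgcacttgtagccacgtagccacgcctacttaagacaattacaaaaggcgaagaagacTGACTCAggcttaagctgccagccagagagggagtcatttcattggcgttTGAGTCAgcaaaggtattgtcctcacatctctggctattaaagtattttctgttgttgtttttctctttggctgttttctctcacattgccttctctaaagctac
IL1B: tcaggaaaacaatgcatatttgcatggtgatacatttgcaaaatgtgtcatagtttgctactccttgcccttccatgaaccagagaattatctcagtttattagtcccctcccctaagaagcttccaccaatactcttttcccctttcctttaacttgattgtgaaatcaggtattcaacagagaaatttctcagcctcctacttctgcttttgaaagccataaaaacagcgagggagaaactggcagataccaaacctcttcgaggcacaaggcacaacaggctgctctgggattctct

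The IL6 window holds the NF-kB match GGGATTTTCC at positions -73 to -64, counted from the base before the start as -1. The REL window holds the overlapping matches GGGAAATTCC and GGAAATTCCC, one on each strand, at -47 to -37, in a sequence with 41 CpG dinucleotides, against a median of 14 over all windows. The IL1A window, 1 of 2 overlapping windows annotated for that gene, holds AP-1 matches at -105 to -99 and -55 to -49. Neither motif was found in the IL1B window, which has 2 CpG dinucleotides. Such a match is a description of the letters and not a binding site, and the lack of one in a short window says nothing about the factor.

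Of the 37 listed genes, 29 had 47 windows, and 17 of these windows (36.2%) held an NF-kB consensus match, against 11.3% of all 35116 windows of that length. The genes were listed as NF-kB factors and targets, so that share is not independent of how they were chosen. AP-1 matches were in 8.51% of the members' windows and 7.71% of all windows, and the TATA motif TATAAA was in 21.3% and 11.5%. An NF-kB match was in a window of 2 of the 6 members that passed in at least 1 comparison (IL6 and REL) and of 12 of the 21 members with a window that passed in none, such as CXCL2, CXCL3, NFKB2 and TNFAIP3.

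The first question was whether these genes differed between TIP-1 shRNA clones and control clones with both hairpins weighted equally. REL, IL1A and IL6 rose and IL1B fell, 4 of 35 members at a limma adjusted p under 0.05, or 11.4%, where 4.62% of all tested rows passed (3.01% rose and 1.61% fell). The other 31 did not pass. The median difference of the members was 0.07 on the log2 scale, against 0.001 for all rows, and 13 members (37.1%) had an unadjusted p under 0.05, against 19.8% of all rows. All 4 TIP-1 shRNA clones lay above both control clones for 9 members (25.7%, against 13% of all rows), namely NFKB1, NFKB2, REL, NFKBIA, NFKBIE, NFKBIZ, IL1A, IL6 and CSF1. They all lay below for 4 members (11.4%, against 8.9% of all rows), namely IL1B, IL7R, CSF3 and CXCL8. Either way that is 13 members (37.1%), against 21.9% of all rows.

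**Figure D1:**
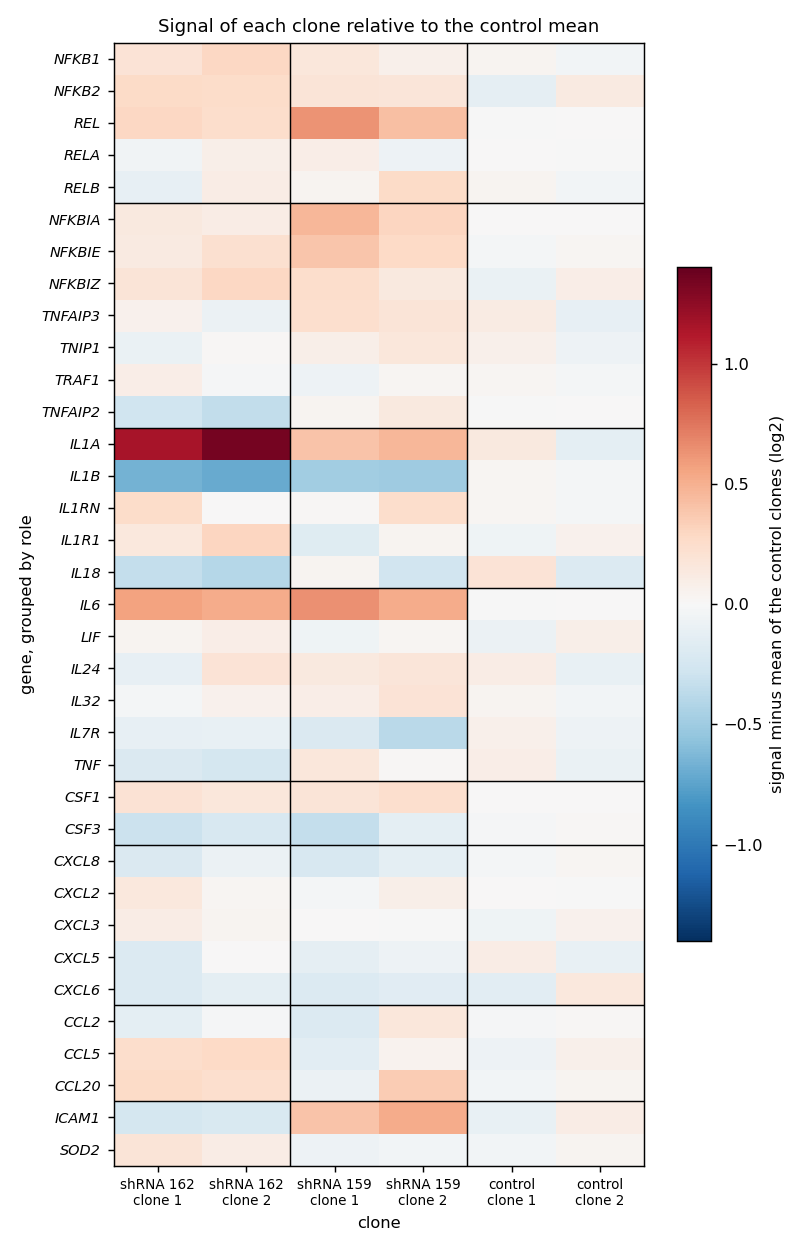
Log2 signal of the 35 members in each of the 6 clones, drawn as the difference from the mean of the control clones (colour scale, log2) and grouped by role, with the shRNA 162 clones left, the shRNA 159 clones next and the control clones right. IL1A is deepest with shRNA 162, IL6 is of like depth in all 4 TIP-1 shRNA clones, and IL1B is on the opposite side in all 4.

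Each hairpin was also set against the same 2 control clones, which the comparisons therefore share. With shRNA 162, IL1A and IL6 rose and TNFAIP2 and IL1B fell, again 4 of 35 (11.4%, against 9.52% of all rows, 5.88% up and 3.64% down). With shRNA 159, REL, IL6 and ICAM1 rose and IL1B fell (11.4%, against 2.53% of all rows, 1.69% up and 0.839% down). With shRNA 162 the members' share was close to that of all rows. Both clones of a hairpin lay on 1 side of both control clones for 23 members with shRNA 162 (65.7%, against 56.6% of all rows) and for 21 with shRNA 159 (60%, against 42.4%). Leaving out either control clone left 0 members passing with shRNA 159 by limma, with 9 or 10 still at an unadjusted p under 0.05 (10 with all 6 arrays, where 14.1% of all rows were), and 2 members passing for the mean of both hairpins. A limma fit with the hairpin or control group as a random block also left 0 for that mean, with 7 at an unadjusted p under 0.05. It used 1 within-group correlation, 0.22, for all rows.

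**Figure D2:**
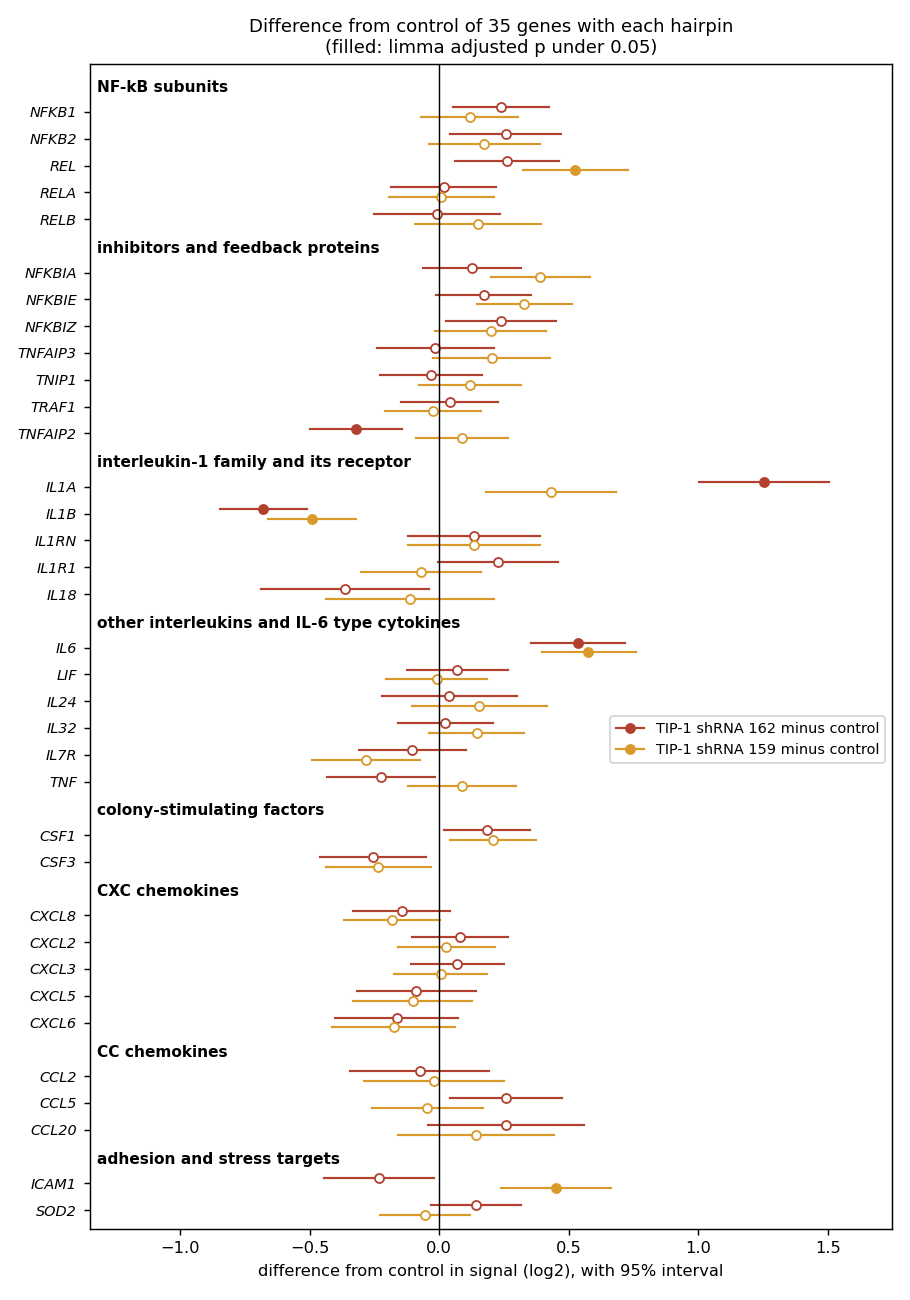
Difference from control (log2, horizontal axis) of each of the 35 members with shRNA 162 and with shRNA 159, with its unadjusted 95% limma interval and filled points where the adjusted p is under 0.05. IL1A with shRNA 162 lies farthest right at 1.25, and IL1B lies farthest left with both hairpins.

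Among the 5 NF-kB subunits, REL rose and the others did not pass. REL encodes c-Rel, a subunit with a transactivation domain best known from lymphocytes. Its signal was 8.12 and 8.08 in the shRNA 162 clones and 8.46 and 8.26 in the shRNA 159 clones, against 7.83 and 7.84 in the control clones. Every TIP-1 shRNA clone was above both control clones, and both shRNA 159 clones were above both shRNA 162 clones. The mean of both hairpins was 0.39 higher than control (SE 0.076, limma adjusted p = 0.026). With shRNA 159 REL rose by 0.53 (SE 0.0878, 1.44-fold, adjusted p = 0.019), and with shRNA 162 the difference was 0.26 (adjusted p = 0.1). The difference between the hairpins, 0.26, did not pass (adjusted p = 0.11).

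REL lies on chromosome 2, and the 14 coding genes nearest to it in the RefSeq order (GRCh38.p14, 7 on each side) were mostly higher too. With shRNA 159 their median difference was 0.19, 13 of 14 lay above 0, and 4 of them rose, as did 1.69% of all rows. With shRNA 162 their median was 0.15, and 1 rose and 1 fell, as did 5.88% and 3.64% of all rows. The part of these neighbours in the REL result was not tested. REL also lost its call for the mean of both hairpins without either control clone (adjusted p = 0.16 and 0.18) or either shRNA 162 clone (0.08 and 0.071), and lost its call with shRNA 159 without either control clone (0.12 and 0.14) or shRNA 159 clone 1 (0.084).

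NFKB1 encodes p105, the precursor of p50, and read 9.53 and 9.63 in the shRNA 162 clones and 9.50 and 9.41 in the shRNA 159 clones, against 9.38 and 9.30 in the control clones. NFKB2 encodes p100, the precursor of p52 in the non-canonical pathway, and read 8.62 and 8.61 with shRNA 162 and 8.54 and 8.52 with shRNA 159, against 8.23 and 8.48 in control clones. In both, the 4 TIP-1 shRNA clones lay above the control clones by small steps that did not pass (0.24 and 0.12 for NFKB1, 0.26 and 0.17 for NFKB2, with shRNA 162 and shRNA 159 in that order). RELA, the main transactivating subunit of the canonical pathway, read 10.75 and 10.88 with shRNA 162 and 10.89 and 10.72 with shRNA 159, against 10.80 and 10.79 in control clones. Its groups overlapped, and the 95% interval of the difference ran from -0.19 to 0.22 with shRNA 162 and from -0.19 to 0.21 with shRNA 159. RELB, the partner of p52, read 8.20 and 8.41 with shRNA 162 and 8.35 and 8.58 with shRNA 159, against 8.35 and 8.27 in control clones, with overlapping groups.

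Of the 7 measured inhibitors and feedback proteins, 1 fell with shRNA 162 (14.3%, against 9.52% of all rows), namely TNFAIP2. With shRNA 159, 0 passed by limma, against 2.53% of all rows, and 2 had an unadjusted p under 0.05, as did 14.1% of all rows. NFKBIA, which encodes the inhibitor IkB-alpha and is a classic NF-kB target, read 9.91 and 9.87 with shRNA 162 and 10.24 and 10.07 with shRNA 159, against 9.77 in both control clones. All 4 TIP-1 shRNA clones were higher, but the difference did not pass with shRNA 159 (0.39, limma adjusted p = 0.053) or shRNA 162 (0.13, adjusted p = 0.39). It passed with shRNA 159 when only the brighter rows were tested (adjusted p = 0.023) and with a variance trend (0.0024). The 14 coding genes around NFKBIA had a median difference of 0.09 with shRNA 159, where 2 rose, as did 1.69% of all rows. With shRNA 162 their median was -0.29, and 4 fell, as did 3.64% of all rows. The part of these neighbours in the NFKBIA values was not tested.

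NFKBIE, the gene of IkB-epsilon, read 8.46 and 8.56 with shRNA 162 and 8.72 and 8.61 with shRNA 159, against 8.31 and 8.36 in control clones, and differed by 0.17 and 0.33 (adjusted p = 0.23 and 0.085). NFKBIZ encodes IkB-zeta, a nuclear cofactor needed for part of the secondary response including IL6, and read 7.95 and 8.06 with shRNA 162 and 8.02 and 7.91 with shRNA 159, against 7.68 and 7.86 in control clones. For both genes every TIP-1 shRNA clone was above every control clone, without passing the test. TNFAIP3 (A20), the ubiquitin-editing enzyme that shuts off the pathway, differed by -0.02 with shRNA 162 and 0.20 with shRNA 159. TNIP1, which binds A20, differed by -0.03 and 0.12, and TRAF1, an adaptor of TNF receptors, was below the lower quartile on all 6 arrays.

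TNFAIP2, a gene first found as induced by TNF, behaved otherwise. It read 8.10 and 8.03 in the shRNA 162 clones and 8.42 and 8.52 in the shRNA 159 clones, against 8.37 and 8.39 in the control clones. The shRNA 162 clones were below all others. The fall with shRNA 162 was -0.32 (SE 0.0777, limma adjusted p = 0.039), and shRNA 159 lay 0.41 above shRNA 162 (adjusted p = 0.017). The 14 coding genes around TNFAIP2 on chromosome 14 had a median of -0.28 with shRNA 162 and of 0.01 with shRNA 159. With shRNA 162, 6 of them fell, as did 3.64% of all rows. The part of these neighbours in the TNFAIP2 result was not tested. The call with shRNA 162 was lost without either control clone or either shRNA 162 clone (adjusted p = 0.12 to 0.22), and the difference between the hairpins without shRNA 162 clone 1 or 2 or shRNA 159 clone 2 (0.073, 0.12 and 0.063).

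With shRNA 162 the interleukin-1 family held the largest differences from control in the list. IL1A encodes interleukin-1 alpha, an alarm cytokine that is active without processing and can stay bound to the cell, and IL1B encodes interleukin-1 beta, which is made as an inactive precursor and cut by caspase-1 in the inflammasome. Both signal through the receptor IL1R1 with IL1RAP. On chromosome 2 the 2 genes are neighbours with no coding gene between them in the RefSeq order. IL1A rose with shRNA 162, while IL1B fell with both hairpins.

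IL1A read 7.39 and 7.58 in the shRNA 162 clones and 6.63 and 6.70 in the shRNA 159 clones, against 6.37 and 6.10 in the control clones. The groups did not overlap, and the shRNA 159 clones lay between the others. The rise with shRNA 162 was 1.25 (SE 0.109, 2.39-fold, limma adjusted p = 0.00055). With shRNA 159 the difference of 0.43 did not pass (adjusted p = 0.096), and the hairpins differed, with shRNA 159 0.82 below shRNA 162 (log2 difference -0.82, adjusted p = 0.0039). The signal was below the lower quartile on the 4 arrays of the shRNA 159 and control clones, and without detection calls the size of the fold is uncertain, as it is for IL1B and IL6, which were that low in 1 of the groups compared. For the mean of both hairpins IL1A rose by 0.84 (adjusted p = 0.0028), a call lost when the 4 TIP-1 shRNA clones were fitted as 1 group (0.33) or with the hairpin as a random block (0.46).

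IL1B read 6.35 and 6.31 in the shRNA 162 clones and 6.52 and 6.51 in the shRNA 159 clones, against 7.04 and 6.98 in the control clones. Both control clones were above all TIP-1 shRNA clones, whose signals lay below the arrays' lower quartile. IL1B fell by 0.68 with shRNA 162 (SE 0.0738, 1.60-fold lower, adjusted p = 0.0016) and by 0.49 with shRNA 159 (1.41-fold lower, adjusted p = 0.012). The difference between the hairpins was 0.19 and did not pass (adjusted p = 0.16). Without either control clone, or without shRNA 159 clone 1, the fall with shRNA 159 no longer passed (adjusted p = 0.057 to 0.1). The 14 coding genes around IL1B had medians of 0.03 with shRNA 162 and -0.05 with shRNA 159. In the same order, the medians were 0.02 and -0.10 around IL1A, 0.05 and 0.06 around IL6, and -0.03 and -0.09 around ICAM1.

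**Figure D3:**
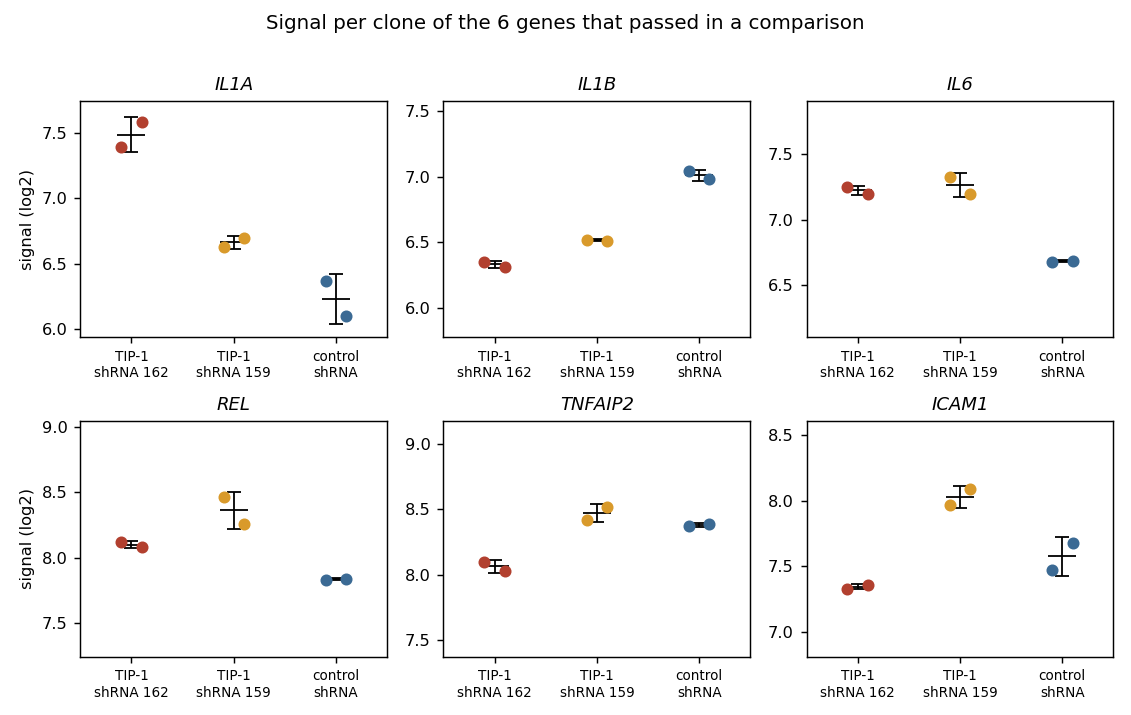
Log2 signal of the 6 members that passed in at least 1 comparison, with each clone as a point, the group mean as a line and the SD as a bar (n = 2 per group), shRNA 162 left, shRNA 159 in the middle and control right, on axes of equal span. IL6 is above both control clones in all 4 TIP-1 shRNA clones, IL1B is below them in all 4, and ICAM1 and TNFAIP2 separate shRNA 159 from shRNA 162.

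The other members of the family did not pass. IL1RN, the gene of the receptor antagonist, and IL1R1 were below the lower quartile on all 6 arrays. IL18, another cytokine cut by caspase-1, read 6.32 and 6.25 with shRNA 162 and 6.69 and 6.38 with shRNA 159, against 6.84 and 6.46 in control clones, so that the shRNA 162 clones were below both control clones and the shRNA 159 clones overlapped with them. Its difference with shRNA 162 was -0.36 (limma adjusted p = 0.15), and its signal was below the lower quartile on 4 of the 6 arrays.

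Of 11 measured genes of interleukin-1 family processing, 1 passed against control with each hairpin. That is 9.09%, against 9.52% of all rows with shRNA 162 and 2.53% with shRNA 159. NLRP3, the sensor of the inflammasome that activates caspase-1, read 6.59 and 6.77 with shRNA 162 and 6.87 and 6.89 with shRNA 159, against 7.53 and 7.48 in control clones. All TIP-1 shRNA clones were below both control clones. The NLRP3 signal was below the lower quartile on 2 arrays, those of the shRNA 162 clones, so the size of that fall is uncertain. CASP1, the gene of caspase-1, was below the lower quartile on all 6 arrays. NLRP3 fell by 0.82 with shRNA 162 (adjusted p = 0.0012) and by 0.62 with shRNA 159 (adjusted p = 0.0079), and the other 10 genes of the list did not pass. The fall with shRNA 159 was lost without control clone 1 or 2 (adjusted p = 0.073 and 0.066).

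Among interleukins and related cytokines IL6 passed with both hairpins. Interleukin-6 signals through IL6R and gp130 to STAT3 and is a classic NF-kB target. Its signal was 7.25 and 7.20 in the shRNA 162 clones and 7.33 and 7.20 in the shRNA 159 clones, against 6.68 and 6.69 in the control clones. Every TIP-1 shRNA clone was above both control clones, and the hairpins overlapped. IL6 rose by 0.54 with shRNA 162 (SE 0.0792, 1.45-fold, limma adjusted p = 0.0059) and by 0.58 with shRNA 159 (SE 0.0792, 1.49-fold, adjusted p = 0.0079). The difference between the hairpins was 0.04, with a 95% interval from -0.14 to 0.22. The control clones were below the arrays' lower quartile. Without control clone 1 the rise with shRNA 162 had an adjusted p of 0.052, and without control clone 1 or 2 the rise with shRNA 159 had 0.071 or 0.073.

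IL6R, which encodes the receptor that interleukin-6 binds first, read 8.40 and 8.34 with shRNA 162 and 8.19 and 8.11 with shRNA 159, against 7.98 and 7.91 in control clones. It rose with shRNA 162 by 0.43 (adjusted p = 0.014), and with shRNA 159 the difference was 0.21 (adjusted p = 0.28). That rise did not pass without either control clone or either shRNA 162 clone (0.068 to 0.099). LIF, an IL-6 type cytokine, differed by 0.07 with shRNA 162 (95% interval -0.13 to 0.27) and by -0.01 with shRNA 159 (-0.21 to 0.19). IL24 was below the lower quartile on all 6 arrays, and IL32 differed by 0.02 with shRNA 162 and 0.14 with shRNA 159.

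IL7R, the receptor chain of interleukin-7, read 10.49 and 10.50 with shRNA 162 and 10.40 and 10.22 with shRNA 159, against 10.67 and 10.53 in control clones. All 4 TIP-1 shRNA clones were below both control clones, with a difference of -0.28 with shRNA 159 that did not pass (adjusted p = 0.19). TNF, the archetypal inducer of NF-kB, read 6.48 and 6.43 with shRNA 162 and 6.84 and 6.70 with shRNA 159, against 6.77 and 6.59 in control clones. The shRNA 162 clones were below all others, and the difference between the hairpins, 0.31, had an adjusted p of 0.074. TNF was below the lower quartile on 4 of the 6 arrays.

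The 2 measured colony-stimulating factors differed from control in opposite directions, without passing. CSF1, the growth factor of macrophages, read 8.77 and 8.73 with shRNA 162 and 8.75 and 8.80 with shRNA 159, against 8.57 in both control clones, a difference of 0.19 and 0.21 (limma adjusted p = 0.16 and 0.24). CSF3, the granulocyte factor G-CSF, read 8.94 and 9.02 with shRNA 162 and 8.91 and 9.10 with shRNA 159, against 9.22 and 9.26 in control clones, a difference of -0.26 and -0.23 (adjusted p = 0.12 and 0.28). For both genes no TIP-1 shRNA clone overlapped with a control clone.

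The 5 CXC chemokines attract neutrophils through the receptors CXCR1 and CXCR2. None of them passed in any comparison by limma, where 2.53% to 9.52% of all rows passed. CXCL8, the gene of interleukin-8, read 7.56 and 7.68 with shRNA 162 and 7.54 and 7.63 with shRNA 159, against 7.74 and 7.79 in control clones. Its 4 TIP-1 shRNA clones were below both control clones, by -0.15 with shRNA 162 and -0.18 with shRNA 159 (adjusted p = 0.31 and 0.36), and it was the member of this group at an unadjusted p under 0.05 for the mean of both hairpins. CXCL2 and CXCL6 were below the lower quartile on all 6 arrays and CXCL3 on 1. CXCL5 differed by -0.09 and -0.10, with overlapping groups. CXCL8 and CXCL6, and likewise CXCL5, CXCL3 and CXCL2, are neighbours on chromosome 4.

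Of the CC chemokines, CCL2 and CCL20, which attract monocytes and cells with CCR6, were below the lower quartile on all 6 arrays. CCL5, which attracts T cells and monocytes, read 7.01 and 7.04 with shRNA 162 and 6.62 and 6.81 with shRNA 159, against 6.69 and 6.84 in control clones. The shRNA 162 clones were above all others (0.26 over control, adjusted p = 0.13), and the difference of shRNA 159 from shRNA 162, -0.30, had an adjusted p of 0.088. CCL5 was below the lower quartile on 2 of the 6 arrays.

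The last question was whether the hairpins, which share a target, differed in these genes. The TAX1BP3 row itself differed from control by -1.67 with shRNA 162 and by -1.20 with shRNA 159. It was 0.47 higher with shRNA 159 than with shRNA 162 (limma adjusted p = 0.013), and the part of that in the differences below was not tested. TNFAIP2 and ICAM1 were higher and IL1A was lower with shRNA 159 than with shRNA 162, 3 of 35 members (8.57%, against 8.65% of all rows, 4.02% up and 4.64% down), a share like that of all rows. The clones of the hairpins did not overlap for 20 members (57.1%, against 51.9% of all rows). ICAM1 encodes an adhesion molecule that leukocyte integrins bind. Its signal was 7.97 and 8.09 in the shRNA 159 clones, against 7.33 and 7.36 in the shRNA 162 clones, while the control clones read 7.47 and 7.68. The shRNA 159 clones were above, and the shRNA 162 clones below, both control clones. ICAM1 was 0.68 higher with shRNA 159 than with shRNA 162 (SE 0.0928, 1.61-fold, limma adjusted p = 0.0044). Against control it rose with shRNA 159 by 0.45 (SE 0.0928, 1.37-fold, adjusted p = 0.045), and with shRNA 162 the difference was -0.23 (adjusted p = 0.17). The rise against control was lost without any 1 of the 6 arrays (adjusted p = 0.081 to 0.22), whereas the difference between hairpins passed without each of them. SOD2, a mitochondrial antioxidant enzyme and NF-kB target, read 8.88 and 8.92 with shRNA 159, against 9.13 and 9.06 with shRNA 162, while the control clones read 8.92 and 8.99, and the difference of -0.20 did not pass (adjusted p = 0.16).

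Taken over the 29 members that passed nowhere, the log2 difference with shRNA 162 ran from -0.36 (IL18) to 0.26 (CCL20), and with shRNA 159 from -0.28 (IL7R) to 0.39 (NFKBIA). The unadjusted 95% intervals of the members reached a median of 0.2 to either side of the estimate. Larger differences also missed the threshold, such as 0.43 for IL1A and 0.39 for NFKBIA with shRNA 159. In all, 8 members were below the lower quartile on all 6 arrays and 20 on none.

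The other genes of the pathway came from 8 lists of 168 genes, 156 of them measured. Of these 156, 12 passed with shRNA 162 (7.69%, against 9.52% of all rows), 5 with shRNA 159 (3.21%, against 2.53%) and 15 between the hairpins (9.62%, against 8.65%), shares near those of all rows. Of 21 measured receptors and adaptors upstream of NF-kB, 1 rose and 4 fell with shRNA 162 (23.8%, against 9.52% of all rows). With shRNA 159, 0 of the 21 passed, against 2.53% of all rows. There 4 had an unadjusted p under 0.05 in the limma fit, as did 14.1% of all rows. Of the 21 genes 5 were higher and 1 was lower with shRNA 159 than with shRNA 162 (28.6%, against 8.65% of all rows). The gene that rose with shRNA 162 was LTBR, by 0.35 (adjusted p = 0.03). It was also the gene that was lower with shRNA 159 than with shRNA 162 (-0.325, adjusted p = 0.042). CD40, a receptor that feeds the non-canonical pathway, read 7.60 and 7.54 with shRNA 162 and 8.73 and 8.70 with shRNA 159, against 8.64 in both control clones. It fell by 1.08 with shRNA 162 (2.11-fold lower, adjusted p = 0.00023), where the shRNA 162 clones stood below all others, and it was 1.15 higher with shRNA 159 than with shRNA 162 (adjusted p = 0.00014). Both calls passed without each array in turn.

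IL1RAP, the accessory chain of the interleukin-1 receptor, fell by 0.59 with shRNA 162 (adjusted p = 0.0052), to 6.92 and 6.88 in the shRNA 162 clones, against 7.52 and 7.46 in the control clones, with an adjusted p of 0.051 without control clone 1. TLR4, the receptor of bacterial lipopolysaccharide, fell by 0.52 with shRNA 162 (adjusted p = 0.014, but 0.096 without control clone 1 and 0.099 without shRNA 162 clone 2). TRAF3, a brake on the non-canonical pathway, was 0.53 higher with shRNA 159 than with shRNA 162 (adjusted p = 0.0066, but 0.059 without shRNA 162 clone 1) and is among the neighbours of TNFAIP2 named above.

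Among 14 measured IKK kinases and inhibitors, MAP3K14 was the gene that passed against control with each hairpin (7.14%). Of all rows, 9.52% passed with shRNA 162 and 2.53% with shRNA 159. MAP3K14 encodes NIK, the kinase that starts the non-canonical pathway and whose protein is kept low by TRAF3. MAP3K14 read 8.81 and 8.88 with shRNA 162 and 8.71 and 8.56 with shRNA 159, against 8.21 and 8.16 in control clones. All TIP-1 shRNA clones were above both control clones, and it rose by 0.66 with shRNA 162 (1.58-fold, adjusted p = 0.0029) and by 0.45 with shRNA 159 (1.37-fold, adjusted p = 0.029). The call with shRNA 159 was lost without any array but shRNA 159 clone 2 (adjusted p = 0.057 to 0.21). IKBKB, the gene of IKK-beta, was lower with shRNA 159 than with shRNA 162 (-0.33, adjusted p = 0.041, and 0.054 to 0.19 without any 1 array). Of 16 measured genes of ubiquitin control 0 passed against control by limma with either hairpin (4 with shRNA 162 and 0 with shRNA 159 at an unadjusted p under 0.05, against 25.1% and 14.1% of all rows), and CYLD, a deubiquitinase that restrains IKK, was 0.43 higher with shRNA 159 than with shRNA 162 (adjusted p = 0.022, but 0.077 to 0.13 without either shRNA 162 clone or shRNA 159 clone 1).

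**Figure D4:**
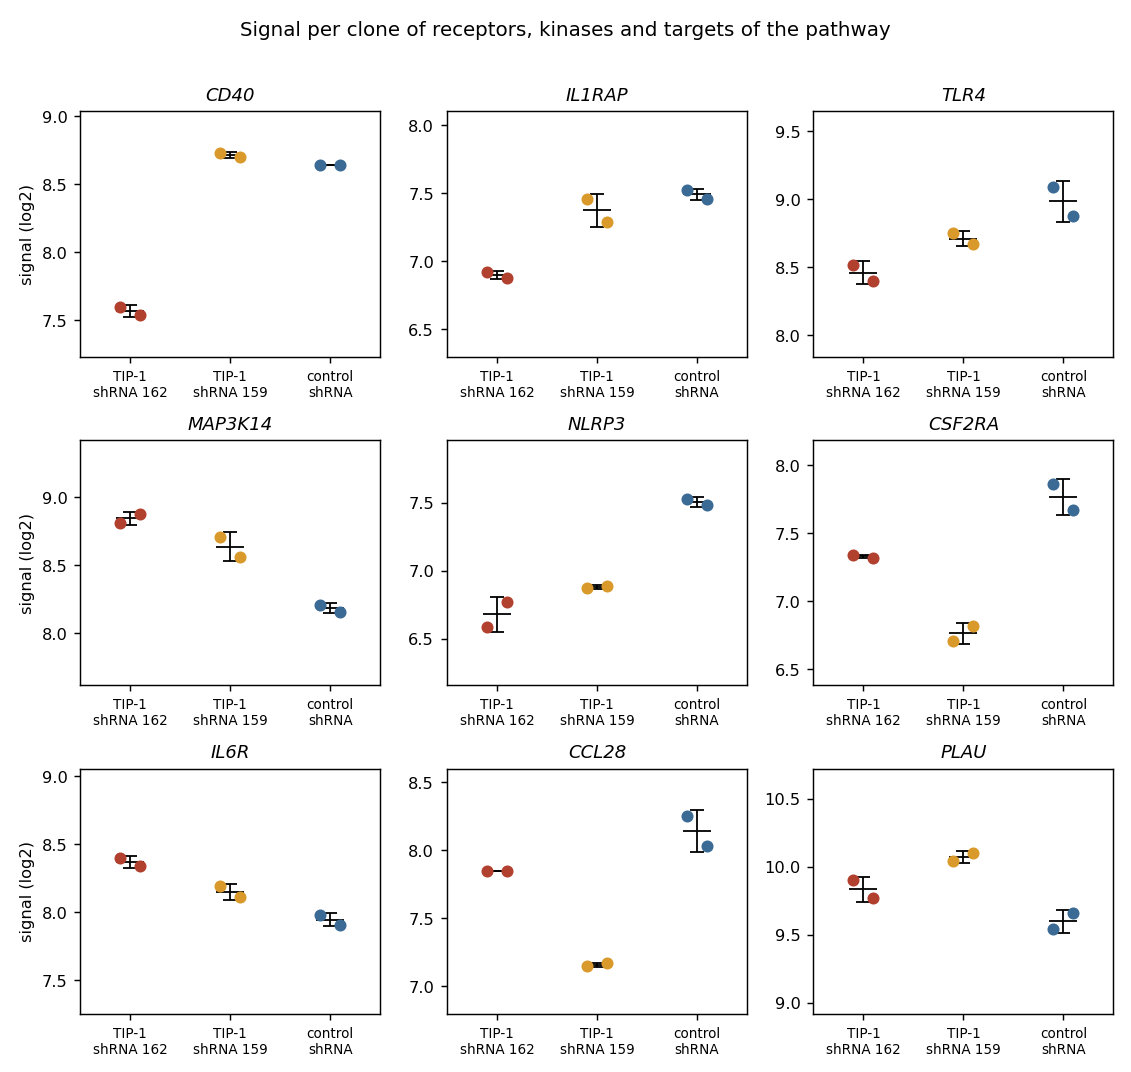
Log2 signal of 9 named genes of the pathway lists in each clone (points, n = 2 per group), with the group mean as a line and the SD as a bar, shRNA 162 left, shRNA 159 in the middle and control right, on axes of equal span. All 4 TIP-1 shRNA clones are above both control clones for MAP3K14 and below them for NLRP3 and CSF2RA, and CD40 is lower in the shRNA 162 clones alone.

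Of 27 other NF-kB target genes, 1 rose and 1 fell with shRNA 162 (7.41%, against 9.52% of all rows) and 1 rose with shRNA 159 (3.7%, against 2.53%), and the median difference was -0.04 and -0.01. PLAU, the gene of urokinase, rose by 0.47 with shRNA 159 (adjusted p = 0.029), to 10.04 and 10.10 in the shRNA 159 clones, against 9.54 and 9.66 in the control clones. PTX3, a soluble pattern receptor, fell by 0.57 with shRNA 162 (adjusted p = 0.02), and IER3, an early-response gene, rose by 0.34 with shRNA 162 (adjusted p = 0.04). Each of these 3 calls was lost with at least 1 array left out. PLAU had adjusted p values up to 0.17 (control clone 1 left out), PTX3 up to 0.11 (control clone 2 or shRNA 162 clone 1) and IER3 up to 0.23 (shRNA 162 clone 2).

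Of 18 other chemokines 0 passed with shRNA 162, against 9.52% of all rows. There 2 had an unadjusted p under 0.05 by limma, as did 25.1% of all rows. With shRNA 159, 1 of the 18 fell (5.56%, against 2.53% of all rows). That gene was CCL28, a mucosal chemokine, which read 7.85 in both shRNA 162 clones and 7.15 and 7.17 in the shRNA 159 clones, against 8.25 and 8.03 in the control clones. It fell by 0.98 with shRNA 159 (1.98-fold lower, adjusted p = 0.0012), and both shRNA 159 clones were below all others. Of 25 other cytokines 0 passed against control by limma with either hairpin. With shRNA 162 and shRNA 159, 2 and 3 had an unadjusted p under 0.05, as did 25.1% and 14.1% of all rows. IL11, an IL-6 type cytokine, was 0.36 higher with shRNA 159 than with shRNA 162 (adjusted p = 0.034). That call was lost without any 1 array, and the difference ran from 0.28 to 0.45 over the alternatives.

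Of 24 receptors for the members, 2 rose and 1 fell with shRNA 162 (12.5%, against 9.52% of all rows) and 1 fell with shRNA 159 (4.17%, against 2.53%). Between the hairpins 4 were lower with shRNA 159 than with shRNA 162 (16.7%, against 8.65%). CSF2RA, a receptor chain for GM-CSF read by 2 rows with identical values, stood at 7.34 and 7.32 with shRNA 162 and at 6.71 and 6.82 with shRNA 159, against 7.86 and 7.67 in control clones. The 3 groups did not overlap, and CSF2RA fell by 0.43 with shRNA 162 (adjusted p = 0.022) and by 0.99 with shRNA 159 (1.99-fold lower, adjusted p = 0.0012). The fall with shRNA 162 was lost without control clone 1 or either shRNA 162 clone (0.099 to 0.14). CCR2, the receptor of CCL2, rose by 0.35 with shRNA 162 (adjusted p = 0.026, and 0.098 to 0.16 without either control or either shRNA 162 clone) at signals below the lower quartile on all 6 arrays.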

How the data were processed

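RNA from 6 MDA-MB-231 clones was read on Affymetrix Human Gene 1.0 ST arrays. The authors deposited log2 signals, 1 per probe set and array, made with the Affymetrix Exon Array Computational Tool per the series' design text. Its settings and the genome build are not given in the sources used. That the scale is log2 was inferred from its range, 2.29 to 14.65. Detection calls and probe-level data were not used, and precision is limited by how few arrays there are. Of 33297 rows, 19460 had 1 symbol, 1754 several and 12083 none in the platform's probe table, and the 21214 with a symbol were tested.

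No further scaling was applied. All 3 groups entered 1 linear model per row (limma 3.58.1 under R 4.3.3, functions lmFit and eBayes), with 3 residual and 5.31 prior degrees of freedom. The 4 two-sided comparisons set the mean of both hairpins against control, each hairpin against control, and shRNA 159 against shRNA 162. The threshold was a Benjamini-Hochberg adjusted p under 0.05 over all 21214 rows, and every adjusted p in the text is from limma. Replicates were independent clones. On simulated data over 21214 rows, planted differences of 0.5 and 1 were recovered at 58% and 93% for the mean of both hairpins, 40% and 87% for shRNA 162 and 44% and 87% for shRNA 159, each minus control.

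The members and lists were chosen with earlier results of these data known. By rule, members that passed, the NF-kB subunits and the largest differences in each role were given per clone, with up to 4 passing genes of smallest p per list, besides TAX1BP3. LTBR and CASP1 were named outside that rule, and their values under other settings were not examined. Further members were given per clone after their values were seen. A gene with several rows was described by its row with the highest mean signal, as for IER3 (3 rows), CCR2 (2 rows) and ESR1 (2 rows). The other rows of these genes are not given here. The alternatives changed the scaling (quantile), the rows (brighter rows, or all), the variance model (a trend), the arrays (each left out in turn, or only the 4 being compared) and the treatment of replicate numbers and hairpins (as blocks, or the 4 TIP-1 shRNA clones as 1 group). With an array left out, the lone clone of its group is assumed to vary like the other groups. Promoter windows and gene order came from RefSeq (GRCh38.p14). Figures were drawn with matplotlib 3.10.9.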

Additional observations from a re-analysis of the deposited data

Results flagged for a closer look

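The hairpins differed from each other in 3 members by the limma test of that difference (shRNA 159 minus shRNA 162, log2). The difference was -0.82 for IL1A (adjusted p = 0.0039), 0.68 for ICAM1 (0.0044) and 0.41 for TNFAIP2 (0.017). SOD2 drew attention because both shRNA 159 clones lay below, and both shRNA 162 clones above, both control clones, and its difference of -0.20 did not pass (adjusted p = 0.16).

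Among the named pathway genes, the same test found these higher with shRNA 159 than with shRNA 162. CD40 differed by 1.15, TRAF3 by 0.53, IL1RAP by 0.47, CYLD by 0.43 and IL11 by 0.36. Lower with shRNA 159 were IL18R1 by -0.69, CCL28 by -0.69, CSF2RA by -0.56, CCL4 by -0.40, CCR2 by -0.36 and IKBKB by -0.33. LTBR was lower too, by -0.325. IL18R1, CCL4 and CCR2 were below the lower quartile of the tested rows on all 6 arrays.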

How the results depend on the processing

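No result reversed under the alternatives run. Of the 15 calls made on members over the 4 comparisons, 4 passed under every alternative that tested them: IL1A and IL1B with shRNA 162, and IL1A and ICAM1 between the hairpins. For the mean of both hairpins, 4 members passed, against 7 with a variance trend, 2 with the 4 TIP-1 shRNA clones as 1 group and 0 with the hairpin as a random block (7 at an unadjusted p under 0.05). For shRNA 159, 4 passed, against 7 with a variance trend and 0 with all 33297 rows tested (10 at an unadjusted p under 0.05). Leaving out 1 array gave 2 to 5 members for the mean of both hairpins, 2 to 4 for shRNA 162, 0 to 4 for shRNA 159 and 2 to 3 between the hairpins. The lowest counts for shRNA 159 came without control clone 1 or 2 (9 or 10 at an unadjusted p under 0.05), and 1 member (IL6) passed without shRNA 159 clone 1. Quantile normalization kept the counts at 4, 4, 4 and 3. Same-numbered clones of different groups had deviations from their group means that correlated at -0.03 (shRNA 162 and shRNA 159), -0.05 (shRNA 162 and control) and 0.26 (shRNA 159 and control). The labels do not say whether same-numbered clones were handled together. With that number as a replicate block, the counts were 4, 5, 5 and 4. IL1B was not among the brighter rows, where 5, 3, 6 and 3 members passed. How many of all rows passed under each alternative is not given here. The counts of members under the alternatives therefore do not show a change particular to the members.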
